A study of Mus musculus with 14 samples.

Results

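The histone deacetylases coded by the classical Hdac genes were examined in the quadriceps of HDAC3 knockout and wild-type mice, to ask how far Hdac3 transcript was lost and what became of the transcripts of its relatives. Members were chosen by gene symbol: Hdac3 and 9 other genes (Hdac1, Hdac2, Hdac8, Hdac4, Hdac5, Hdac7, Hdac9, Hdac6 and Hdac11), 10 of the 24354 genes in the deposited table. Hdac10, the 11th classical gene, is given beside them. The study combined HDAC3 ChIP-seq, RNA-seq and nascent RNA sequencing of mouse muscle, and the RNA-seq table is the data used here. It holds 3 knockout libraries and 3 wild-type libraries from quadriceps of male C57BL/6 mice aged 4 months, kept on normal chow and a normal light and dark schedule with no treatment, and taken at rest at ZT10. ZT counts hours after lights on, so this is late in the light phase. The groups differ by the label HDAC3 Knock-out against HDAC3 Wild-type. The labels used here name neither the allele nor a Cre driver, nor the cells it reaches, and do not say whether each library is a separate animal, so p-values measure a spread between libraries that may be technical.

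Histone deacetylases remove acetyl groups from lysines of histones and other proteins. Class I enzymes (HDAC1, HDAC2, HDAC3 and HDAC8) are mostly nuclear; HDAC1 and HDAC2 work in the NuRD, Sin3 and CoREST complexes, while HDAC3 gives the NCoR corepressor complex its deacetylase activity. Class IIa proteins (HDAC4, HDAC5, HDAC7 and HDAC9) have little catalytic activity of their own. They bind MEF2 transcription factors in muscle, can recruit HDAC3 with its corepressor, and leave the nucleus when phosphorylated by kinases that respond to calcium or energy state. HDAC6 and HDAC10 form class IIb and HDAC11 class IV.

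Values are FPKM, fragments per kilobase of transcript scaled to library size, which is per length and so allows levels of different genes to be set side by side. Differences were tested with limma on log2(FPKM + 1), a scale that understates the change of low genes, over all 10501 genes with a mean of at least 1 FPKM. A gene was called when its Benjamini-Hochberg adjusted p was under 0.05. All 10 members passed this filter. FPKM summed to 464777 to 495099 in knockout and to 454359 to 484510 in wild-type libraries. Relative to wild-type replicate 1, sequencing depth read from the steps of low values was 0.660, 0.832 and 0.674 in knockout replicates 1, 2 and 3, and 0.831 and 1.02 in wild-type replicates 2 and 3; the values of low members rest on the fewest fragments in knockout replicates 1 and 3. Skeletal muscle genes were abundant in every library: the 12 listed markers summed to 69686 to 86324 FPKM in knockout and 72906 to 82006 in wild type. Wild-type replicate 2 stood apart through neutrophil genes, whose 7 listed markers summed to 3.42 to 7.502 FPKM in knockout libraries and to 542 in wild-type replicate 2, the highest of the wild-type libraries, against 5.54 in the lowest. Leaving that library out took the number of called genes over the whole table to 13 higher and 6 lower, against 242 higher and 141 lower with all 6 libraries. Other libraries left out singly also cut these counts, to 28 and 18 without knockout replicate 3 and 30 and 15 without knockout replicate 1. Over all single libraries left out they ran from 13 to 133 and from 6 to 75.

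Hdac3 transcript was strongly reduced, but not absent, in the knockout muscle. Knockout replicates 1, 2 and 3 held 5.51, 6.29 and 8.16 FPKM, against 33.3, 31.0 and 23.7 FPKM in the wild-type libraries. Every knockout library lay below every wild-type library, and within each group replicate 3 was nearest to the other group. The knockout mean was 6.65 ± 1.36 FPKM and the wild-type mean 29.3 ± 4.99 (SD, n = 3 each), so the knockout held 22.7% of the wild-type level (ratio 0.227 ± 0.0349, SE). Hdac3 fell by 1.99 on the log2(FPKM + 1) scale (95% interval -2.40 to -1.58, limma adjusted p = 0.00632), and the authors' deposited table gave it a q of 0.00119. Without wild-type replicate 2 the log2 difference was -1.94 (limma adjusted p = 0.0456). In whole muscle, fewer cells of a type and less RNA per cell cannot be told apart.

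Which exons the remaining transcript covers and which cells it came from were not tested. Markers of other cell types were present in both groups. Over all tested genes limma called 2.3% higher and 1.34% lower, so short lists with none called are near the table as a whole. The authors' deposited table called 4.94% of its genes with p under 1 lower. The 10 endothelial markers, Pecam1 and Egfl7 the most abundant, summed to 109 to 121 FPKM in knockout and 106 to 119 in wild type, with none called. The 8 fibroblast markers, led by Dcn, summed to 304 to 466 FPKM in knockout and 440 to 631 in wild type, with none called by limma and 7 of 8 lower in the knockout; the authors' deposited table called 2 of them lower, among them Col1a2 (49.9 ± 18.9 FPKM in knockout and 77.3 ± 8.66 in wild type). The macrophage list summed to 50.9 to 85.3 FPKM in knockout and 75.8 to 81.5 in wild type, again with none called. In the smooth muscle, satellite cell, nerve, adipocyte and neutrophil lists limma called none. The authors' deposited table called the satellite cell gene Cdh15 lower (1.72 ± 0.422 FPKM in knockout and 3.45 ± 1.19 in wild type) and 4 of the 7 listed neutrophil genes lower. One of these 4 was the granule gene Ngp, which was listed at 0 in all knockout libraries and at 0.168, 33.9 and 0.164 FPKM in wild-type libraries. No marker of the endothelial, fibroblast and macrophage lists was at 0 in all libraries, and their part in the remaining Hdac3 was not tested. Of the 12 muscle markers 1 was called, Des, the intermediate filament desmin, at 869, 915 and 1095 FPKM in knockout and 423, 447 and 626 FPKM in wild type (log2 difference 0.96, limma adjusted p = 0.0326, and 0.144 without wild-type replicate 2).

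**Figure D1:**
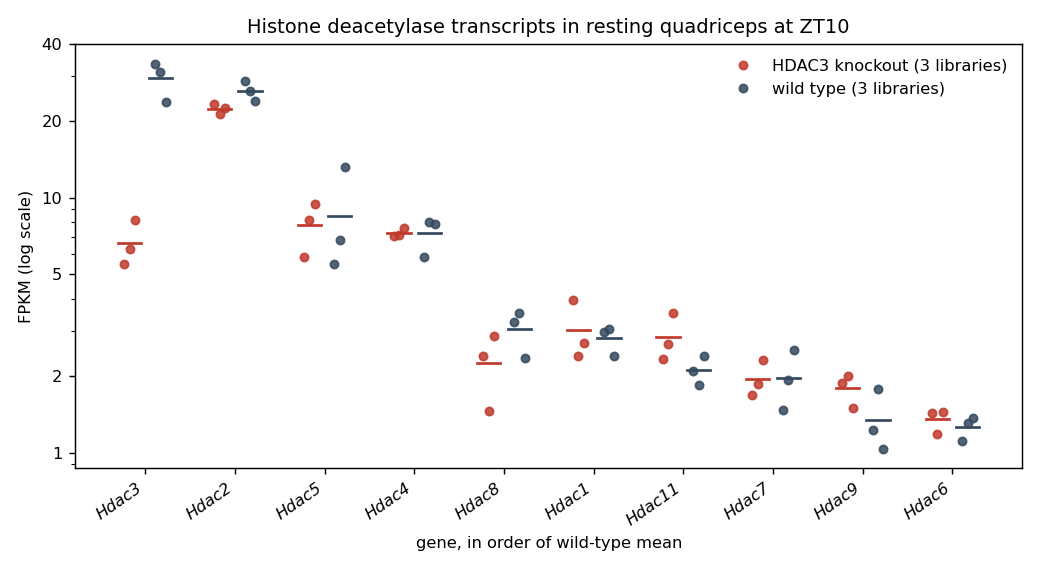
FPKM of the 10 genes (log axis) in each of the 3 knockout and 3 wild-type libraries, with group means as lines, ordered by wild-type mean. Hdac3 separates widely, from 5.51 to 8.16 FPKM in knockout and 23.7 to 33.3 in wild type; Hdac2 separates narrowly, and the other 8 genes overlap between the groups.

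None of the 9 relatives was called in either direction. Of the 10 members 1 fell and 0 rose. Among all tested genes 1.34% fell and 2.3% rose by the same rule (3.65% in all), so a count of 0 among 9 is near what the table as a whole gives. Even before adjustment limma gave no other member a p under 0.05, the lowest being 0.0686 for Hdac2. The share of all tested genes with such a p is not given here. In the authors' deposited table, genes with p under 1 were taken as tested, and 5.9% of these were called higher and 4.94% lower (10.8% in all). They included 8 members, of which 1, Hdac3, was called. The 9 adjusted p-values lay between 0.297 and 0.999. On the log2(FPKM + 1) scale none of their 95% intervals reached above 0.67 or below -0.82. These bounds hold for that scale alone: with a pseudocount of 0.1 the difference of Hdac9 was 0.41, against 0.26, and that of Hdac6 0.09, against 0.06.

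Hdac2, the class I partner of HDAC1 in NuRD, Sin3 and CoREST, was the most abundant relative. It was at 23.2, 21.2 and 22.5 FPKM in knockout libraries, against 28.7, 26.3 and 23.8 FPKM in wild-type libraries. The groups did not overlap, the closest pair being knockout replicate 1 and wild-type replicate 3. The mean was 22.3 ± 1.02 in knockout and 26.2 ± 2.42 in wild type, 85.1% of the wild-type level. The difference of -0.22 on the log2(FPKM + 1) scale (95% interval -0.46 to 0.02) did not pass (limma adjusted p = 0.297). Non-overlap alone is common here: 26.1% of all tested genes had groups apart in one direction or the other, and 2 of the 10 members did.

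Hdac1, at a much lower level, showed no shift between groups beyond its spread. It was at 3.97, 2.39 and 2.68 FPKM in knockout libraries and 2.98, 3.05 and 2.39 FPKM in wild-type libraries, with knockout replicate 1 the highest of all. The log2 difference was 0.06 (95% interval -0.35 to 0.48, limma adjusted p = 0.891). RefSeq lists an Hdac1 pseudogene with no row of its own in the table, so reads could be shared and the level of Hdac1 is uncertain. Hdac8, which deacetylates the cohesin subunit SMC3, was at 2.40, 1.46 and 2.87 FPKM in knockout libraries and 3.27, 3.52 and 2.36 FPKM in wild-type libraries. Wild-type replicate 3 lay below knockout replicates 1 and 3, so the groups overlapped, and the log2 difference was -0.33 (95% interval -0.82 to 0.15, limma adjusted p = 0.430). Without knockout replicate 2, the lowest library, it was -0.15.

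The class IIa genes are next, with the promoters of the most abundant relatives shown first. Hdac2, Hdac5 and Hdac4 hold the top places in the knockout, and their promoter windows are printed with matches to a few short sequences. A link between these matches and transcript level was not tested. Each window runs 5′ to 3′ from 250 bases before to 50 bases after the RefSeq start in build GRCm38.p6 and is printed from RefSeq. The places are chr10:36974294-36974593 (plus strand) for Hdac2, chr11:102230123-102230422 (minus strand) for Hdac5 and chr1:92180292-92180591 (minus strand) for Hdac4. Capitals mark matches, on either strand, to the GC box GGGCGG bound by SP factors and, in Hdac5, to the E-box CACGTG bound by CLOCK and BMAL1 and to the MEF2 consensus. That consensus is a run of A and T between TA pairs and allows more than 1 base at several places. No marked match overlaps another.
Hdac2: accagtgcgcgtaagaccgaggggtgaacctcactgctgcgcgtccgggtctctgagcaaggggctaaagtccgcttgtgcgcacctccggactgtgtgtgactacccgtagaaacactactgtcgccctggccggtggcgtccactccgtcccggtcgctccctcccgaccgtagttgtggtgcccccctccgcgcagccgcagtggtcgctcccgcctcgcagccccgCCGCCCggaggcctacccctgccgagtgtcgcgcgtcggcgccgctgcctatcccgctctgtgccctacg
Hdac5: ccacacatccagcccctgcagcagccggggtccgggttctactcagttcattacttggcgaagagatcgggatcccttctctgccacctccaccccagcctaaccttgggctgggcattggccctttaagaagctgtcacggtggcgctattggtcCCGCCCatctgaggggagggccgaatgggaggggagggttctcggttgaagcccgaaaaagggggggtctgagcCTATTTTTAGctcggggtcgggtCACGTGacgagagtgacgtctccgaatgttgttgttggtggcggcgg
Hdac4: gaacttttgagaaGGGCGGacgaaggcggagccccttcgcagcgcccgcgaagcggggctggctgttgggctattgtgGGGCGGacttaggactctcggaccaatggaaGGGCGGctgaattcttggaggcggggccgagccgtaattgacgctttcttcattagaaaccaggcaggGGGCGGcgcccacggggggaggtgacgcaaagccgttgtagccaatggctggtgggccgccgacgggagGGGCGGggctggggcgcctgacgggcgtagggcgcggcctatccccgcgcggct

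Promoters were found for 8 of the 10 members, 12 windows in all, since Hdac7 has 4 and Hdac9 has 2; Hdac1 and Hdac3 had no entry. The MEF2 consensus was in 1 of the 12 windows, that of Hdac5, 20 bases before the start, against 3.19% of 32851 promoters of the same length. This consensus was chosen after a match in Hdac5 had been seen, so the count is not independent of that choice. The E-box was also in 1 of 12, again Hdac5, 4 bases into the transcript, against 7.15% of all promoters. GC boxes were in 6 of 12 (35.7% of all promoters), with 5 each in Hdac4 and Hdac6. The CCAAT box was in 5 of 12 (37.4%), the nuclear receptor half-site AGGTCA in 2 of 12 (16.3%), in 1 window each of Hdac7 and Hdac9, and the cyclic AMP response element TGACGTCA in 0 of 12 (1.79%). These are descriptions of letters; binding at them was not measured here.

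Hdac4 and Hdac5, the most abundant class IIa genes in this muscle, were not called. Hdac4, known for relaying denervation to muscle genes, was at 7.08, 7.17 and 7.62 FPKM in knockout libraries, against 5.84, 8.04 and 7.91 FPKM in wild-type libraries. The knockout values lay inside the wild-type range, and the log2 difference was 0.01 (95% interval -0.31 to 0.34, limma adjusted p = 0.972). With median-of-ratios scaling its sign turned, to -0.01. Hdac5, which like Hdac4 shuttles between nucleus and cytoplasm, was at 5.84, 8.14 and 9.41 FPKM in knockout and 5.50, 6.85 and 13.1 FPKM in wild type. Wild-type replicate 3 stood above the rest, and the log2 difference was -0.05 (95% interval -0.75 to 0.65, limma adjusted p = 0.952), so a change of this gene by up to that size could not be seen.

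Hdac7, best known from blood vessels and thymocytes, was at 1.68, 1.87 and 2.31 FPKM in knockout libraries and 1.47, 1.92 and 2.52 FPKM in wild-type libraries. Its knockout values lay inside the wild-type range (log2 difference 0.00, 95% interval -0.41 to 0.41, limma adjusted p = 0.999; -0.01 with median-of-ratios scaling). Hdac7 shares ground with Slc48a1 in the RefSeq annotation, and as strandedness is not given, reads of the overlap cannot be assigned. Hdac9, whose locus also makes a form without the deacetylase domain (MITR), was at 1.88, 2.003 and 1.497 FPKM in knockout and 1.23, 1.78 and 1.03 FPKM in wild type. All but one wild-type library lay below the knockout libraries, and the log2 difference was 0.26 (95% interval -0.14 to 0.66, limma adjusted p = 0.458). Without wild-type replicate 3 it was 0.16. FPKM per gene does not separate the full-length and short forms.

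**Figure D2:**
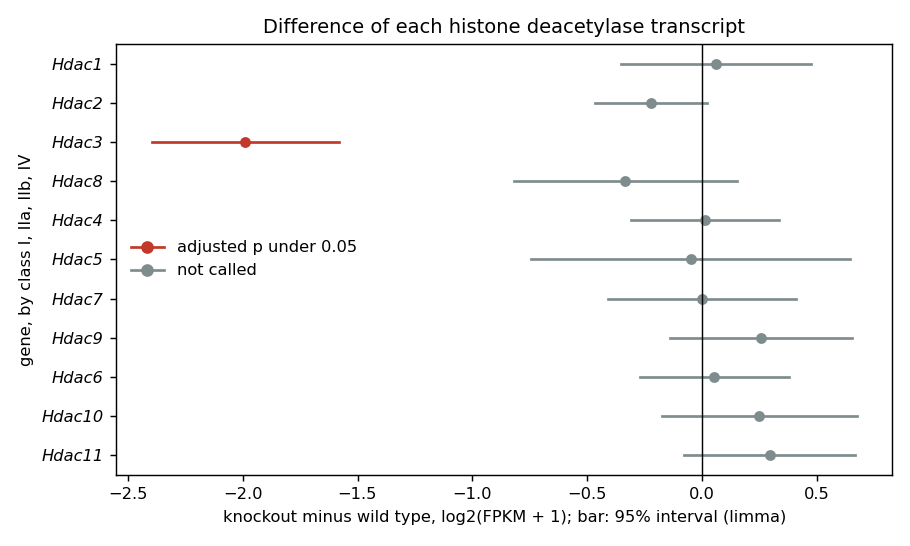
Knockout minus wild type on the log2(FPKM + 1) scale with 95% intervals from limma (3 libraries each), by class, with Hdac10 added. Hdac3 stands at -1.99, and the intervals of the other 10 genes all include 0.

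Hdac5 and Hdac7 followed each other from library to library, as seen in the plot of Hdac5 against Hdac7. In each group both were lowest in replicate 1 and highest in replicate 3. Over the 6 libraries Pearson's r of log2(FPKM + 1) was 0.95 (exact permutation p = 0.00417, 0.188 when adjusted over the 45 pairs of members) and Spearman's rho 0.94 (exact permutation p = 0.0167, adjusted 0.606). Without the 2 libraries farthest from the median of Hdac5, wild-type replicates 3 and 1, r was 0.89. The pair was picked as the strongest of 45 and did not pass the adjustment, and the libraries differ in depth. The permutation also treats the 6 libraries as exchangeable, while a link between same-numbered libraries is open.

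**Figure D3:**
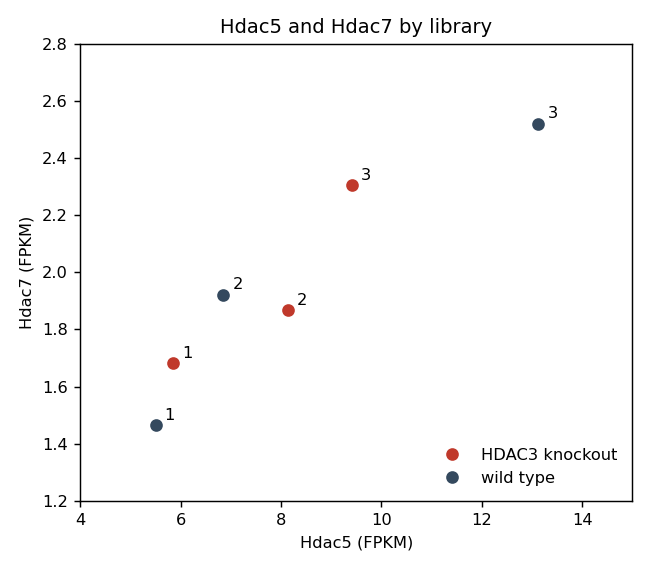
FPKM of Hdac7 against Hdac5, 1 point per library, numbered by replicate. In both groups replicate 1 is lowest and replicate 3 highest on both axes, and the knockout points (Hdac5 at 5.84 to 9.41) lie within the span of the wild-type points (5.50 to 13.1).

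Hdac6, Hdac10 and Hdac11, of the remaining classes, were not called. Hdac11, the class IV enzyme, which removes long fatty acyl groups from lysine, was at 2.32, 2.68 and 3.51 FPKM in knockout and 2.09, 1.84 and 2.39 FPKM in wild type. The groups overlapped only through knockout replicate 1 and wild-type replicate 3, and the log2 difference was 0.30 (95% interval -0.08 to 0.67, limma adjusted p = 0.359). Without knockout replicate 3 it was 0.17. Hdac6, the cytoplasmic deacetylase of tubulin, was the lowest member, at 1.44, 1.19 and 1.44 FPKM in knockout and 1.11, 1.31 and 1.37 FPKM in wild type, with the groups overlapping (log2 difference 0.06, 95% interval -0.27 to 0.38, limma adjusted p = 0.872). Hdac10, which deacetylates polyamines, was at 2.40, 3.38 and 3.42 FPKM in knockout and 2.05, 2.07 and 3.17 FPKM in wild type (log2 difference 0.25, 95% interval -0.18 to 0.68, limma adjusted p = 0.502). Hdac6 and Hdac9 were not among the genes taken as tested in the authors' deposited table.

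The order of the family's levels differed at the top. In knockout Hdac2 led alone at 22.3 FPKM, 2.86 times the next gene. Hdac5 (7.80), Hdac4 (7.29) and Hdac3 (6.65) followed as overlapping neighbours. All 3 knockout values of Hdac3 were still above every value of Hdac1 (3.01), and Hdac1, Hdac11 (2.84), Hdac8 (2.24), Hdac7 (1.95) and Hdac9 (1.79) each overlapped with the next, with Hdac6 (1.35) last and apart. In wild type Hdac3 came first at 29.3 FPKM and Hdac2 second at 26.2, and the order of these neighbours was not firm, since Hdac3 was the higher in 2 of 3 libraries and the ranges overlapped. After a gap of 3.09 times came Hdac5 (8.49) and Hdac4 (7.27), which overlapped, then, below Hdac4 in every library, Hdac8 (3.05) and Hdac1 (2.81), which overlapped. Hdac11 (2.11) lay just below the range of Hdac1, and Hdac11, Hdac7 (1.97), Hdac9 (1.35) and Hdac6 (1.27) each overlapped with the next.

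The summed histone deacetylase transcripts were lower in every knockout library than in any wild-type library. The 10 genes summed to 55.4, 54.4 and 62.0 FPKM in knockout libraries and 85.4, 85.6 and 80.6 FPKM in wild-type libraries, a difference in means of -26.6 FPKM, of which Hdac3 made up -22.7 (two-sided exact permutation p = 0.1, the smallest that 3 against 3 libraries allow). The 9 others summed to 50.6 ± 2.94 FPKM in knockout and 54.5 ± 2.38 in wild type (SD, n = 3 each), a difference of -3.94 ± 2.19 (SE). The two-sided exact permutation test gave p = 0.2, in a design that cannot reach 0.05, so it does not settle whether this sum differed. Hdac3 gave 9.95%, 11.6% and 13.2% of the pool in knockout libraries and 38.9%, 36.3% and 29.4% in wild-type libraries, with no overlap (exact permutation p = 0.1, the smallest possible). The share of Hdac2 was 39.1% ± 2.84 in knockout and 31.3% ± 2.07 in wild type (exact permutation p = 0.1), a share of a total that holds Hdac3 too. Hdac2 transcript was 4.22, 3.37 and 2.76 times that of Hdac3 in knockout libraries and 0.862, 0.846 and 1.004 times in wild-type libraries. The class IIa genes summed to 18.8 ± 2.20 FPKM in knockout and 19.1 ± 5.29 in wild type (exact permutation p = 1).

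**Figure D4:**
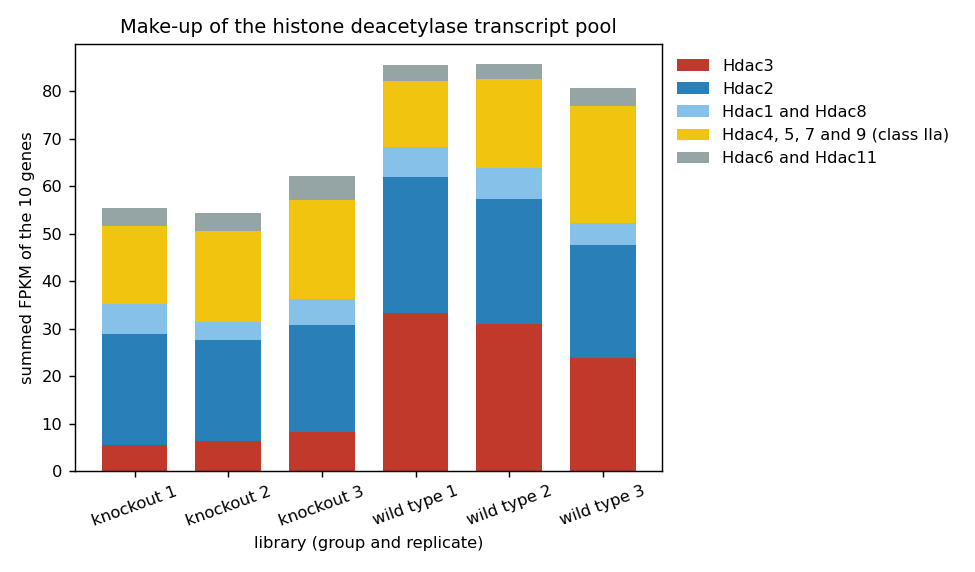
Stacked FPKM of the 10 genes in each knockout and wild-type library. The red Hdac3 block is 5.51 to 8.16 FPKM in knockout and 23.7 to 33.3 in wild type, while the other blocks together reach 48.1 to 53.9 FPKM in knockout and 52.2 to 56.9 in wild type.

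The genes whose pattern was most like Hdac3, by Pearson's r of log2(FPKM + 1) over the 6 libraries, were Sccpdh, Tmem5, Slc10a3, Actr3b and Stk38l, with r between 0.992 and 0.996. The groups do not overlap for any of these genes, as for 26.1% of all tested genes. Their r mostly describes that difference and is given with no test. They were picked by r with Hdac3 over these same libraries, which favours a difference between the groups. The limma values below are therefore a description of the picked genes and not independent evidence of a difference. Actr3b, an actin-related protein, came closest in its log2 difference, -2.03 (limma adjusted p = 0.00994, and 0.0713 without wild-type replicate 2), at 0.652, 1.45 and 1.74 FPKM in knockout and 9.13, 8.65 and 6.66 FPKM in wild type. As with Hdac3, replicate 3 of each group was nearest to the other group, an order that picking by r favours. The knockout means of Sccpdh, Tmem5, Stk38l and Slc10a3 were 63.2%, 64.8%, 69.9% and 78.4% of their wild-type means. Stk38l and Slc10a3 were called neither by limma (adjusted p = 0.111 and 0.325) nor in the authors' deposited table (q = 0.0825 and 0.811). Limma called Sccpdh and Tmem5 (adjusted p = 0.0242 and 0.0226). With single libraries left out their limma adjusted p ran from 0.0499 to 0.115 and from 0.0475 to 0.112.

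Among the genes of the corepressor complexes that hold HDAC3, the paired TBL1 subunit genes were called higher. Of the 6 genes of the NCoR complex reported here 2 rose, 0 fell and 4 were not called. Among all tested genes 2.3% rose and 1.34% fell by the same rule. Tbl1xr1 was at 16.0, 21.0 and 17.4 FPKM in knockout and 11.04, 10.4 and 10.2 FPKM in wild type (log2 difference 0.72, limma adjusted p = 0.0263), and Tbl1x at 9.45, 10.1 and 10.2 against 6.09, 6.86 and 5.66 FPKM (0.60, limma adjusted p = 0.0327). Both code for WD-repeat subunits that bind histone tails and exchange factors. Both lost the call when any single library was left out (adjusted p from 0.0567 to 0.115 for Tbl1xr1 and from 0.0789 to 0.127 for Tbl1x). Ncor1, named after its values were seen, codes for a corepressor whose deacetylase-activating domain switches HDAC3 on. It was at 26.2, 22.9 and 26.7 FPKM in knockout and 22.7, 23.5 and 21.3 FPKM in wild type, with overlap, and was not called (limma adjusted p = 0.453).

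Genes for enzymes with the opposite activity, histone acetylation, moved in both directions. Of 17 histone acetyltransferases on the list 2 rose, 1 fell and 14 were not called, against 2.3% risen and 1.34% fallen over all tested genes. On the list 9 were higher, with a median log2 difference of 0.02, against 50.3% higher and a median of 0.00 over all tested genes. Hat1, which acetylates newly made histone H4 before its deposition, was at 23.8, 23.5 and 24.4 FPKM in knockout and 10.6, 12.1 and 10.1 FPKM in wild type. It was at 2.19 ± 0.123 times the wild-type level (SE), higher by 1.07 on the log2(FPKM + 1) scale (limma adjusted p = 0.00688), and was called whichever library was left out (adjusted p from 0.0221 to 0.0448). Kat2b, the coactivator PCAF, was at 74.1, 68.2 and 72.9 FPKM in knockout and 52.0, 43.0 and 43.0 FPKM in wild type (log2 difference 0.64, limma adjusted p = 0.0264). Ep300, a broad coactivator acetyltransferase, was at 4.48, 4.34 and 4.197 FPKM in knockout and 6.16, 7.05 and 7.04 FPKM in wild type (log2 difference -0.54, limma adjusted p = 0.0443). Its close relative Crebbp, named after its values were seen, was at 6.43 ± 1.204 FPKM in knockout and 7.64 ± 0.774 in wild type and was not called. Left out in turn, single libraries took the adjusted p of Kat2b to between 0.0338 and 0.120 and that of Ep300 to between 0.0668 and 0.191. Clock, a circadian factor reported to acetylate histones, was called in the authors' deposited table (q = 0.00668) and not by limma (adjusted p = 0.0664), at 12.05 ± 0.965 FPKM in knockout and 8.16 ± 0.940 in wild type.

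**Figure D5:**
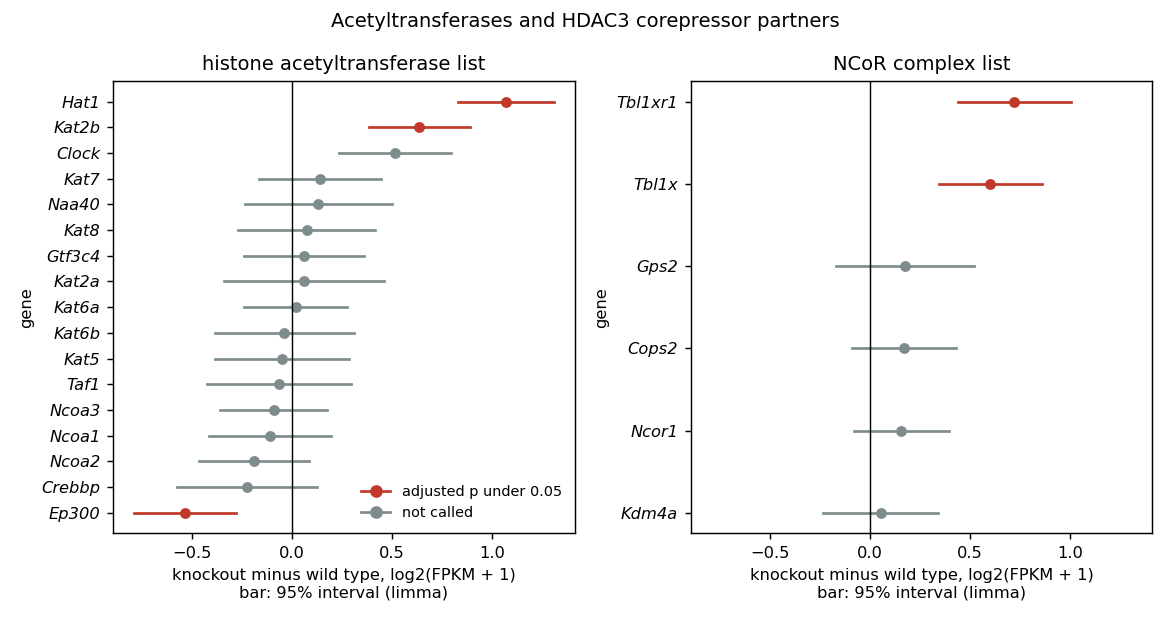
Knockout minus wild type on the log2(FPKM + 1) scale with 95% limma intervals for the 17 acetyltransferase genes and 6 NCoR complex genes. Hat1 (1.07), Kat2b (0.64), Tbl1xr1 (0.72) and Tbl1x (0.60) are called higher and Ep300 (-0.54) lower.

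Partners of HDAC1 and HDAC2 and readers of acetyl-lysine gave no limma call, and most had a lower mean in the knockout. Of 35 tested genes of the NuRD, Sin3, CoREST and MiDAC complexes none was called by limma (6 with p under 0.05 before adjustment), 26 were lower in the knockout and the median log2 difference was -0.10. Over all tested genes 50.3% were higher in the knockout, with a median of 0.00. Limma called 3.65% of all tested genes, and their share with p under 0.05 before adjustment is not given here. The 38 listed genes, untested ones included, summed to 302 to 313 FPKM in knockout and 317 to 343 in wild type. Mbd3, a NuRD subunit named here after its values were seen, was the 1 gene of the list that the authors' deposited table called, with wild-type replicate 3 at 11.4 FPKM above all others. That table called 4.94% of its tested genes lower. Of 18 tested readers, such as the bromodomain proteins, limma and the authors' deposited table called none (1 had a limma p under 0.05 before adjustment) and 13 were lower, with a median of -0.10. The NAD-dependent sirtuins, a separate family of deacetylases, had 0 of 6 tested genes called by limma or in the authors' deposited table (0 with a limma p under 0.05 before adjustment), 3 higher, and a median of 0.02. Sirt2 (20.5 ± 2.02 FPKM in knockout and 18.9 ± 1.28 in wild type) and Sirt3 (16.1 ± 3.41 and 14.5 ± 0.746) were the most abundant sirtuins and were named for their level.

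The partners of the class IIa proteins gave no limma call. All tested MEF2 genes are named, after their values were seen. Of the MEF2 factors, Mef2a was at 29.3 ± 4.51 FPKM in knockout and 36.5 ± 0.878 in wild type, Mef2c at 126 ± 5.17 and 146 ± 17.6, and Mef2d at 22.8 ± 2.75 and 18.1 ± 0.0683. Groups lay apart in each of the 3, as in 26.1% of all tested genes. Limma called none (adjusted p = 0.209 for Mef2a, 0.363 for Mef2c and 0.175 for Mef2d), nor did the authors' deposited table. Of 20 tested class IIa kinases and their phospho-binding adaptors, limma called none (7 with p under 0.05 before adjustment). The authors' deposited table called 2 as fallen, the kinase gene Mark2 (2.04 ± 0.280 FPKM in knockout and 3.52 ± 0.701 in wild type) and the adaptor gene Ywhag (17.8 ± 0.961 and 24.0 ± 4.36). That table called 4.94% of its tested genes lower. Limma called 3.65% of all tested genes, and their share with p under 0.05 before adjustment is not given here.

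Genes that HDAC4 and its MEF2 partners are known to steer after denervation were called in both directions, though the calls were not stable. Of 6 tested genes limma called 1 higher and 2 lower, against 2.3% and 1.34% of all tested genes. Chrne, the adult subunit of the acetylcholine receptor, was at 9.96, 7.90 and 7.70 FPKM in knockout and 3.92, 5.55 and 4.29 FPKM in wild type (log2 difference 0.77, limma adjusted p = 0.0425). Musk, the receptor kinase that builds the synapse, was at 3.02, 2.84 and 4.01 against 6.24, 6.10 and 7.17 FPKM (-0.81, limma adjusted p = 0.0294), and Chrnb1, another receptor subunit, at 7.33, 8.39 and 7.19 against 14.0, 15.4 and 11.02 FPKM (-0.73, limma adjusted p = 0.0383). Without single libraries 0 or 1 of these calls held, and 0 with a replicate block or with no filter on low values. Myog, the myogenic factor induced by denervation, and Chrna1 were called as higher in the authors' deposited table (q = 0.00794 and 0.0264) and not by limma (adjusted p = 0.0877 and 0.126). That table called 5.9% of its tested genes higher. Myog was at 4.67 ± 1.11 FPKM in knockout and 1.87 ± 0.907 in wild type.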

How the data were processed

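The authors made the FPKM values per library, the group means and the p-values and q-values of the deposited table with TopHat2 and Cuffdiff; the build was mm9, per the submitters' processing notes. Their versions, the annotation, strandedness and library scaling were not given in the sources used here. Columns were assigned to libraries by group and replicate number in the labels. Fits used limma 3.58.1 in R 4.3.3 on log2(FPKM + 1) with the spread modelled on mean level, genes with a mean of at least 1 FPKM, knockout against wild type, no covariates, two-sided, and were tested on simulated data. The ratio of means has a delta-method SE. Sums and shares had exact permutation tests over libraries. Total read numbers are unknown; relative depth came from the commonest ratio of values under 0.3 FPKM. Members, lists and tests were chosen with earlier results of these data known, and the MEF2 consensus replaced an exact-letter search after a match in Hdac5 had been seen. Every member was named; of each other list, up to 4 called genes and up to 2 with groups apart that the deposited table called; others named were chosen after their values were seen. Alternatives were another pseudocount, filters, scaling, single libraries left out, a replicate block and the deposited q-values. HDAC3 peak lists were not used here, since no mm9 gene positions were at hand. One gene of the NCoR complex list is not reported here and is left out of that list's counts, so no direction count or median is given for it.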

Additional observations from a re-analysis of the deposited data

How the results depend on the processing

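The fall of Hdac3 was called under every alternative run, with log2 differences from -2.13 to -1.88 when single libraries were left out, and no other member was called under any alternative. The sign of 4 members with small differences turned. For Hdac4 and Hdac7 it turned with median-of-ratios scaling (-0.00571 and -0.0147), for Hdac7 also as a ratio of means in the authors' deposited table (-0.0134), and with single libraries left out values ran from -0.10 to 0.17 for Hdac1, -0.12 to 0.0854 for Hdac4, -0.28 to 0.28 for Hdac5 and -0.13 to 0.13 for Hdac7. The other members kept their sign, with ranges of -0.29 to -0.16 for Hdac2, -0.47 to -0.15 for Hdac8, 0.16 to 0.39 for Hdac9, 0.01 to 0.11 for Hdac6 and 0.17 to 0.40 for Hdac11. Without knockout replicate 1 Hdac1 was at -0.10 and Hdac5 at 0.12; without knockout replicate 3 Hdac4 was at -0.01 and Hdac7 at -0.08; without wild-type replicate 1 Hdac4 was at -0.12 and Hdac7 at -0.13; without wild-type replicate 2 Hdac7 was at -0.00303 and without wild-type replicate 3 Hdac1 was at -0.02 and Hdac5 at 0.28. Counts over the table moved more: 242 genes rose and 141 fell, against 13 to 133 and 6 to 75 with 1 library left out, the fewest without wild-type replicate 2. With no filter on low values 152 rose, and 1 NCoR complex gene and 0 denervation genes were called. By the deposited q-values 543 rose and 455 fell (10.8% of 9204), with 1 gene of the HDAC1 and HDAC2 complexes, 2 kinase or adaptor genes and 5 denervation genes called. With 1 library left out, 0 NCoR complex genes, 0 to 1 denervation genes and 1 to 2 acetyltransferases were called. The cause was not tested, and each of these fits also holds fewer libraries. The labels do not say whether same-numbered libraries were handled together. With group means removed, same-numbered libraries correlated at 0.0370, 0.0524 and 0.0467. Of the 6 libraries, 6 correlated best with their own number in the other group, so a link between them is open. With a replicate block 23 genes rose and 13 fell, with 0 NCoR complex, 0 denervation and 1 acetyltransferase gene called; Hdac3 and Hat1 were among them (adjusted p = 0.0494 each). The difference in the share of Hdac3 in the pool ran from -26.0 to -21.3 percentage points and that of the 9 others from -5.57 to -2.69 FPKM without single libraries. Low members near 1 FPKM are limited by depth.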
